A study of Homo sapiens with 8 samples.

Results

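The genes described here are the zinc finger genes named ZNF that lie outside the large arrays of chromosomes 19 and 7. They were chosen from GENCODE release 44 as protein-coding genes whose symbol starts with ZNF and whose transcription start site (TSS) lies on any other autosome, which gave 220 of 19970 protein-coding genes on chromosomes 1 to 22 and X. Chromosomes 19 and 7 hold another 249 and 35 ZNF genes. Of the 220 genes, 95 had the TSS of another ZNF gene within 200 kb and were called clustered, and the other 125 were called isolated. Chained by these distances, the 95 genes formed 26 clusters of 2 to 9 genes. The 95 include 4 readthrough or opposite-strand entries that overlap another member: ZNF593OS, ZNF670-ZNF695, ZNF511-PRAP1 and ZNF286A-TBC1D26.

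The data came from SUM159, an established line of triple-negative breast cancer with mesenchymal features. The cells carried a lentiviral vector (pLV) for dCas9-KRAB, in which a Cas9 that cannot cut DNA is joined to a KRAB domain, and were selected with puromycin. In the All gRNA group the vector also expressed a pool of 4 guide RNAs against the promoter of ZEB1, and the No gRNA group had the same dCas9-KRAB vector without a targeting guide, so all libraries contain the KRAB fusion. Native ChIP-seq was done for H3K9me3 (antibody ab8898) and H3K4me3 (ab8580) with 2 biological replicates per group and mark, 8 libraries in all. The study used these libraries to ask what silencing ZEB1 did to chromatin, and the ZNF genes offer a set of regions in the same cells that are not guide targets.

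Most ZNF proteins bind DNA through tandem C2H2 zinc fingers, short modules held by pairs of cysteines and histidines around a zinc ion. Many also carry a KRAB domain at the amino end, which recruits the corepressor TRIM28 (KAP1) and through it the methyltransferase SETDB1, which deposits H3K9me3 at the bound sites. The genes that encode these proteins arose largely by tandem duplication, and their own finger-coding exons are known as places where H3K9me3 accumulates in many cell types. H3K4me3, by contrast, marks the start sites of genes that are active or poised for activity.

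A coding sequence matching a KRAB box was found in 74 of the 220 genes, 50 of the 95 clustered and 24 of the 125 isolated ones. A match to a SCAN domain, a protein-protein interaction domain of some zinc finger proteins, was found in 16, and at least 1 C2H2 finger in 205, with a median of 9 fingers. The KRAB search was strict, so that a gene without a match may still hold a divergent box. In 169 genes the longest coding exon held most of the fingers, and in 164 it was the last coding exon.

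The repeated unit behind these genes is shown by 6 of the 7 genes of the most heavily marked cluster, near the end of the long arm of chromosome 12. The lines give the first 84 bases of the longest coding exon of each gene that encode 1 finger with its linker, read from hg38 in the direction of the gene, and the same unit of 2 genes from an unmarked cluster on chromosome 16. Capitals mark the codons of the 2 cysteines and the 2 histidines of the finger and the linker TGEKP that follows the last histidine.
ZNF605: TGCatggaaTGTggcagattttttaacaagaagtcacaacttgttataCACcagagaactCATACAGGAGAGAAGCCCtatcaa
ZNF84: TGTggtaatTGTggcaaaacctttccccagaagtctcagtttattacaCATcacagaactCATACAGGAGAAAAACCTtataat
ZNF140: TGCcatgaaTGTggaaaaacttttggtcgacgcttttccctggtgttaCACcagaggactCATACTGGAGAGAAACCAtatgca
ZNF891: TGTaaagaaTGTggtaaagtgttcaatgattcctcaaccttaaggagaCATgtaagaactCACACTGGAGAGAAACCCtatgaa
ZNF10: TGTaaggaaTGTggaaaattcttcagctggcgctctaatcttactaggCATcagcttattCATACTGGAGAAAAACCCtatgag
ZNF268: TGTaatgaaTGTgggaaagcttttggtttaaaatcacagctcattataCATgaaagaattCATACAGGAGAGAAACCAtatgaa
ZNF764: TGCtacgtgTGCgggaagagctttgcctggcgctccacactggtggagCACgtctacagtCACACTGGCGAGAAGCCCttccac
ZNF785: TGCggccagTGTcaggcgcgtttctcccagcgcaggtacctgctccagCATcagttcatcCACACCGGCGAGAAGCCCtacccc

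In the order printed, the units lie at chr12:132926705-132926788 (minus strand), chr12:133057424-133057507 (plus), chr12:133105764-133105847 (plus), chr12:133120788-133120871 (minus), chr12:133156045-133156128 (plus), chr12:133202854-133202937 (plus), chr16:30555809-30555892 (minus) and chr16:30583091-30583174 (minus). Over the 15 pairs of the 6 chromosome 12 genes, identity of the 84 bases ranged from 58.3% to 71.4% with a median of 65.5%, and the closest pair was ZNF605 and ZNF268. With a linker TGEKP or TGERP the unit occurs 4 to 16 times in the exon of each of the 6 genes.

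H3K9me3 was first checked at the guide target. Around the ZEB1 TSS (± 10 kb), peaks covered 22.8% and 67.3% of the bases in the 2 All gRNA libraries, while both No gRNA libraries had 0%, the direction that the labels give. For H3K4me3 the labels could not be relied on in the same way. The names of 2 of the 4 deposited H3K4me3 lists give the other condition than the labels, namely those labelled All gRNA replicate 2 and No gRNA replicate 1. The ZEB1 start (TSS ± 1 kb) was 100% covered by H3K4me3 in the libraries labelled All gRNA replicate 2 and No gRNA replicate 2, and 0% in those labelled All gRNA replicate 1 and No gRNA replicate 1. Grouped by the file names, the start thus had 0% in both libraries with the guides and 100% in both without. The paper reports that H3K4me3 was almost fully lost at this promoter after editing, and the grouping by label does not show that. The labels were kept, each H3K4me3 library is called by its label, and group results are also given without those 2 libraries. At the 5 epithelial genes EPCAM, CDH1, ESRP1, GRHL2 and KRT19, and at the T cell and hepatocyte genes CD3E, CD3D, ALB and APOA1, no H3K4me3 peak at q ≤ 0.05 reached the start in any library. In the list labelled No gRNA replicate 2, peaks reached the starts of all 5 mesenchymal genes examined, VIM, FN1, CDH2, SPARC and ZEB1. Fewer were reached in the other libraries. They were VIM, CDH2 and SPARC in that labelled All gRNA replicate 1, SPARC and ZEB1 in All gRNA replicate 2, and VIM alone in No gRNA replicate 1.

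All values are the percentage of a region covered by the peaks of 1 library at q ≤ 0.05, after overlapping peaks were merged. The peak lists hold no read counts, the depth is unknown, and libraries differed in yield. H3K9me3 peaks covered 188 to 238 Mb of the chromosomes in 3 libraries but 97.6 Mb in No gRNA replicate 1. H3K4me3 peaks covered 54.6 and 19.3 Mb in the libraries labelled All gRNA replicates 1 and 2, and 46.0 and 115 Mb in the 2 labelled No gRNA replicates 1 and 2.

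H3K9me3 was concentrated in a minority of these genes. On average 17.8% and 15.8% of the gene body was covered with the guides and 7.88% and 17.9% in No gRNA. In genes without a ZNF symbol the mean was 0.622% to 2.52%, and in the ZNF genes of chromosome 19 it was 39.1% to 71.4%. Of the 220 genes, 129 had no H3K9me3 peak in the body in any library and 14 were at least 50% covered in all 4. Without the low-yield library No gRNA replicate 1, those counts were 131 and 29. The 14 genes were ZNF605, ZNF26, ZNF84, ZNF140, ZNF891 and ZNF268 on chromosome 12, ZNF718, ZNF141 and ZNF721 on chromosome 4, ZNF354B and ZNF454 on chromosome 5, ZNF263 on chromosome 16, ZNF510 on chromosome 9 and ZNF7 on chromosome 8. All 14 were clustered and 11 matched KRAB. Of the 29 found without No gRNA replicate 1, 25 were clustered, 4 isolated and 25 matched KRAB. With all deposited peaks, weak ones included, 60 genes were at least 50% covered in all 4 libraries, 46 clustered and 14 isolated.

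ZNF140 had the highest covered share in its lowest library, with 95.7% and 100% of its body with the guides and 100% in both No gRNA libraries. ZNF891, which runs in the opposite direction and overlaps the end of ZNF140, was covered at 96.2% and 94.5% with the guides and 95.8% and 92.05% in No gRNA. ZNF354B on chromosome 5 was covered at 100% and 95.8% with the guides and 90.01% and 96.3% in No gRNA. In these 3 genes no library fell below 90%, the low-yield library included. ZNF84 was at 95.1% in each All gRNA library, against 88.6% and 84.4%. ZNF605 had 95.0%, 100%, 79.8% and 93.5% in the same order, and ZNF26 had 97.7%, 97.0%, 75.4% and 96.4%. ZNF268, the gene of this cluster nearest the chromosome end and the one with most fingers (24), had 97.0%, 100%, 69.3% and 96.8%. In the last 3 the low value was that of No gRNA replicate 1, and the other 3 libraries were at 93.5% or more. ZNF7, on chromosome 8, had 89.97% and 89.4% with the guides and 88.2% and 74.5% in No gRNA, with its lowest value in the other replicate. ZNF141, at the tip of chromosome 4, had 86.6% and 86.0% against 69.4% and 84.6%. ZNF263, a SCAN zinc finger gene, had 75.4% and 76.1% against 75.9% and 87.3%.

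**Figure D1:**
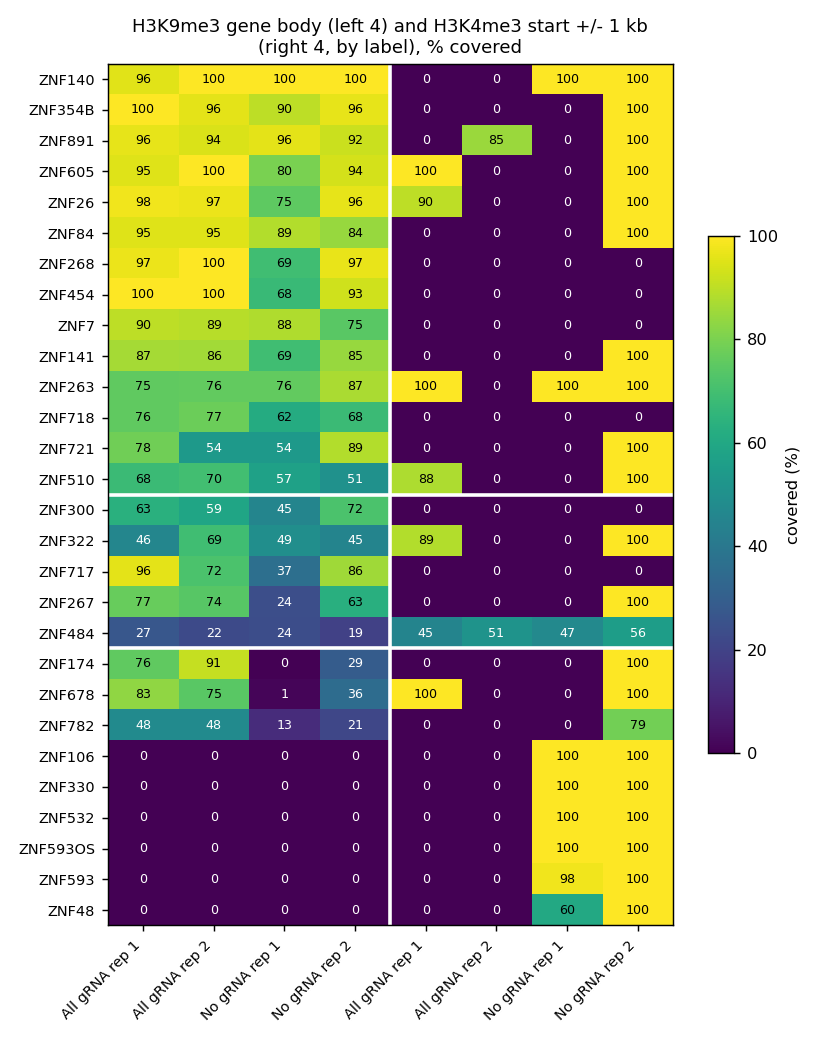
Percentage covered in each library for 28 named genes. The left 4 columns are H3K9me3 over the gene body and the right 4 are H3K4me3 within 1 kb of the TSS, by label. The top block holds the 14 genes at least 50% covered by H3K9me3 in all 4 libraries, the middle block the 5 highest isolated genes, and the bottom block the other genes whose groups lay at least 25 points apart, among which the 6 lowest have no H3K9me3.

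Clusters differed from nearly complete coverage to none. The chromosome 12 cluster runs from ZNF605 to ZNF268 (ZNF605, ZNF26, ZNF84, ZNF140, ZNF891, ZNF10 and ZNF268, all 7 with a KRAB match; chr12:132918306-133214832). The mean over its genes was 96.1% and 97.6% with the guides and 75.8% and 92.9% in No gRNA. The whole interval of 297 kb, intergenic stretches included, was covered at 95.5%, 97.1%, 64.5% and 91.5% in the same order. ZNF140 was its highest gene and ZNF10 its lowest, with 96.2% and 96.8% with the guides and 21.9% and 87.4% in No gRNA. ZNF10, also known as KOX1, encodes the protein from which the KRAB domain of many dCas9-KRAB fusions is taken.

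The chromosome 5 cluster (ZNF354A, ZNF354B, ZNF454, ZNF879 and ZNF354C, all 5 with a KRAB match; chr5:178711512-179083977) was covered at 96.8% and 97.8% with the guides and 31.6% and 94.9% in No gRNA. ZNF354A, ZNF879 and ZNF354C were at 0% in No gRNA replicate 1 and at 85.1% or more in the other 3 libraries, while ZNF354B, the highest gene, was not low there. ZNF354C had the lowest mean over libraries. The longest run of peaks, joined over gaps of up to 1 kb, was 143 and 141 kb with the guides and 55.4 and 148 kb in No gRNA. With all deposited peaks, weak ones included, ZNF354A, ZNF879 and ZNF354C were covered at 94.7%, 100% and 92.9% in No gRNA replicate 1.

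The cluster at the tip of chromosome 4 (ZNF595, ZNF718, ZNF732, ZNF141 and ZNF721, 4 of 5 with a KRAB match; chr4:53286-499156) had 79.7% and 76.5% against 51.1% and 79.0%. Its highest gene was ZNF141 and its lowest ZNF732. Its coverage was broken into 25 to 37 runs per library, more than in any other of the 8 clusters of 5 or more genes, and its peaks had the lowest q-values of those clusters in every library, down to 4.32e-08.

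Other large clusters were marked in part. In the chromosome 1 cluster (ZNF695 to ZNF496, 5 of 6 with a KRAB match; chr1:246945547-247331867) the mean was 55.9% and 31.3% with the guides and 17.9% and 61.9% in No gRNA, so that replicates of one group differed more than the groups did. The 6 include the readthrough entry ZNF670-ZNF695. ZNF124 was the highest gene of the cluster, and ZNF496, a SCAN gene at the edge, was at 0% in all 4 libraries. With all deposited peaks ZNF496 had 9.74% to 21.6%. In the cluster on the short arm of chromosome 16 (ZNF205 to ZNF597; chr16:3112560-3443504) the mean was 33.2% and 34.7% against 17.5% and 38.2%. There ZNF263 was covered in every library while ZNF205, ZNF213 and ZNF597 had no peak in any. In the cluster near the end of chromosome 8 (ZNF251 to ZNF16; chr8:144720907-144950888), with 27.9% and 22.4% against 21.99% and 18.8%, ZNF7 and ZNF16 carried the signal and the other 4 genes, including ZNF517, were at 0%. In the chromosome 3 cluster (ZNF445 to ZNF501; chr3:44431705-44737083) the values were 28.6% and 0.146% with the guides and 0% and 38.4% in No gRNA. There ZNF501 and ZNF502 were at 100% in 1 library of each group and at 0% in the others, and ZNF445 was at 0% throughout. With all deposited peaks, weak ones included, ZNF501 was at 100% in all 4 libraries and ZNF502 at 91.9% to 100%. ZNF445 then had 8.63% to 15.6%.

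The largest cluster had none. It holds 9 genes on chromosome 16 (ZNF48, ZNF771, ZNF768, ZNF747, ZNF764, ZNF688, ZNF785, ZNF689 and ZNF629; chr16:30378106-30787205), 5 of them with a KRAB match, and every gene body was at 0% in all 4 libraries. Peaks at q ≤ 0.05 touched this interval once, over 0.894 kb between genes in All gRNA replicate 1. With all deposited peaks, weak ones included, ZNF688 had 38.4% in All gRNA replicate 2, ZNF689 and ZNF785 had up to 18.8% and 17.7%, and the other 6 genes had at most 5.22% in any library. H3K4me3 covered on average 44.4% and 0% of the 9 start regions in the 2 labelled All gRNA, against 24.8% and 77.8% in the 2 labelled No gRNA.

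**Figure D2:**
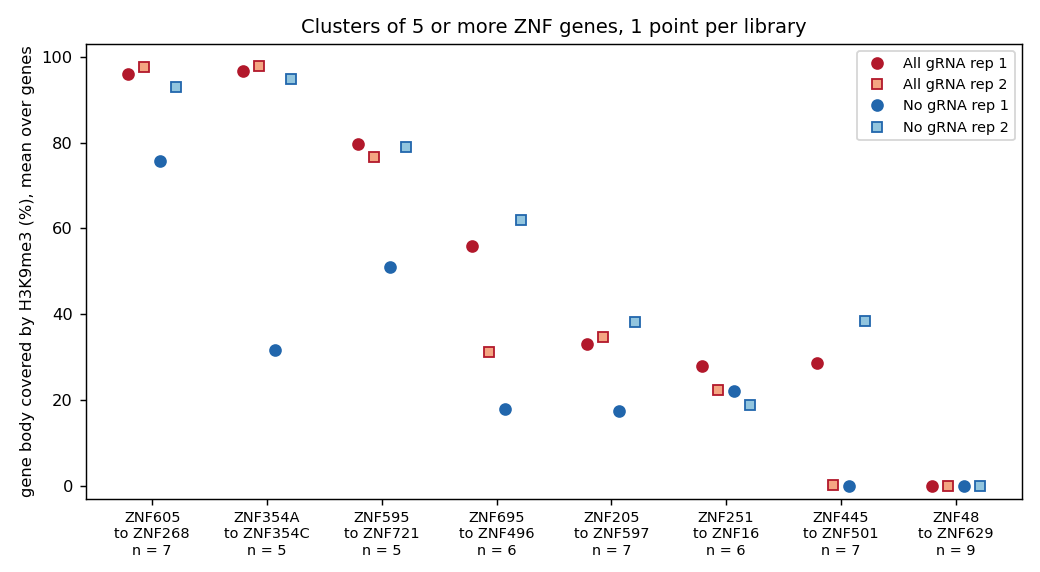
Mean gene body coverage by H3K9me3 (%) in the 8 clusters of 5 or more ZNF genes, named by their first and last gene, with 1 point per library. The chromosome 12 cluster (ZNF605 to ZNF268) lies between 75.8% and 97.6%, the chromosome 16 cluster from ZNF48 to ZNF629 lies at 0%, and No gRNA replicate 1 is the lowest point in 6 clusters.

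Clustered genes carried more H3K9me3 than isolated genes in every library. The gene body mean was 32.7% and 29.2% with the guides and 16.2% and 33.5% in No gRNA for the 95 clustered genes. For the 125 isolated genes it was 6.45% and 5.53% against 1.53% and 6.07%. The difference was 23.01 points ± 5.74 (SD, n = 4 libraries) and ranged from 14.7 to 27.4. Within 10 kb of the TSS it was 17.3 points ± 6.25, from 8.26 to 21.9. The genes of a cluster share a region and are not independent, so no test was made over genes. With each of the 26 clusters counted once, the mean was 25.2% and 23.5% with the guides and 11.8% and 24.8% in No gRNA, and 9 clusters were at 0% in all 4 libraries. Those at 0% include the pairs ZNF593 and ZNF593OS, ZNF511 and ZNF511-PRAP1, and ZNF286A and ZNF286A-TBC1D26, each a single place entered under 2 names. Without the 4 readthrough or opposite-strand entries the gene body difference between clustered and isolated genes was 23.7 points. ZNF593, ZNF511 and ZNF286A were still counted as clustered there, though their only neighbour was a dropped entry.

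Both neighbourhood and the KRAB match went with the mark. Clustered genes with a KRAB match had a mean of 39.1% over the 4 libraries, clustered genes without one 15.4%, isolated genes with one 17.6% and isolated genes without one 1.87%, which lies next to the 1.72% of genes without a ZNF symbol. Genes with a KRAB match exceeded the others by 23.7 points among clustered genes and by 15.7 points among isolated genes. Clustered genes exceeded isolated ones by 21.5 points among those with a match and by 13.5 points among those without. Each of these 4 differences was positive in 4 of 4 libraries. Clustered genes were somewhat shorter, with a median of 22.3 kb against 32.4 kb. Among genes at or under the median length, clustered genes had 20.4% and isolated genes 5.15%, and among longer genes 39.1% and 4.71%.

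**Figure D3:**
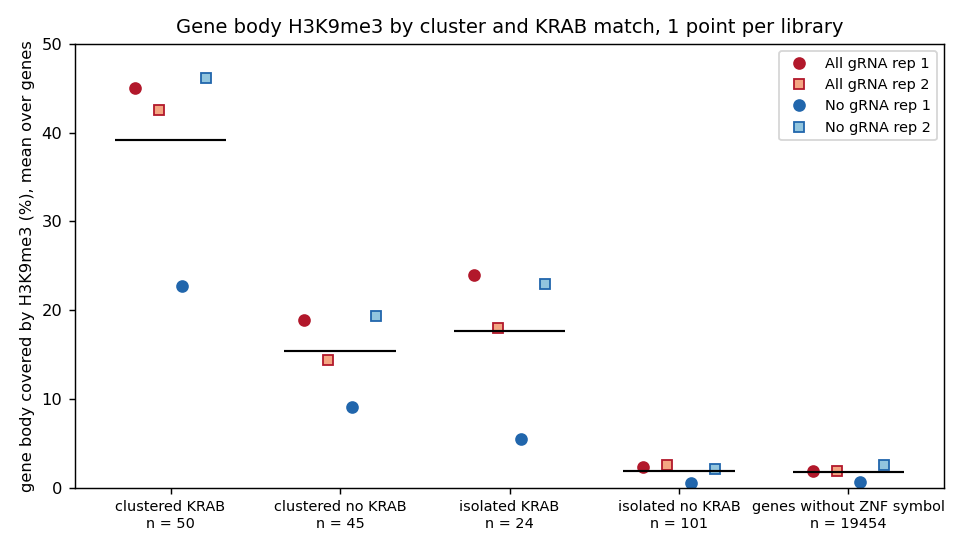
Mean gene body coverage by H3K9me3 (%) for 4 classes of the 220 genes and for genes without a ZNF symbol, with 1 point per library and a line at the mean of the 4. In every library clustered genes with a KRAB match are highest, and isolated genes without one lie at 0.576% to 2.55%.

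The share was higher in genes with more fingers. It averaged 4.51% in the 15 genes with no finger found, 1.04% in the 50 with 1 to 4, 15.5% in the 65 with 5 to 9, 22.8% in the 63 with 10 to 14 and 25.9% in the 27 with 15 or more. Across the 220 genes, Spearman's rho between fingers and gene body share was 0.216 to 0.360 in the 4 libraries, a description over genes that share libraries and clusters. The share of genes with a KRAB match also differed between the classes, with 8% in that with 1 to 4 fingers, 55.6% in that with 10 to 14 and 51.9% in that with 15 or more. Within the 74 genes with a match rho was 0.110 to 0.273, and within the 146 without one 0.116 to 0.294, positive in all 4 libraries of both sets.

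Finger exons were covered more than whole gene bodies. The longest coding exon, which usually holds the finger array, was covered at 23.5% and 21.3% with the guides and 11.999% and 26.5% in No gRNA, 6.00 points ± 1.90 (SD, n = 4 libraries) above the gene body and higher in 4 of 4 libraries. In genes with a KRAB match the excess was 9.39 points ± 2.63. This exon was at least 50% covered in all 4 libraries in 23 genes, 15 with a KRAB match, against 14 genes for the whole body. These counts compare regions of unlike size, with a median of 1241 bases for the exon and 25.8 kb for the body. The part of size in them was not tested. In ZNF484, an isolated gene on chromosome 9 (chr9:92844182-92878038, minus strand), only 27.3% and 22.4% of the body was covered with the guides and 23.8% and 19.4% in No gRNA. Its finger exon, however, was covered at 100% in 3 libraries and at 97.6% in No gRNA replicate 2. ZNF322 on chromosome 6 had 45.7%, 69.2%, 49.5% and 45.3% of the body and 100% of the exon in all 4.

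Along isolated genes with a KRAB match, divided into 10 equal steps, coverage rose from 3.69% in the 5 kb before the start to 7.20% in step 1 and 23.4% in steps 8 and 9, then fell to 13.1% in the 5 kb after the end and 8.01% at 10 to 15 kb. Clustered genes with a match stood at 25.9% in the 5 kb before the start, reached 42.5% in step 4, lay at 37.1% and 39.3% in steps 9 and 10 and were still at 31.7% at 10 to 15 kb past the end. Isolated genes without a match stayed at or below 3.36% throughout. Flanks of clustered genes often contain the next ZNF gene.

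**Figure D4:**
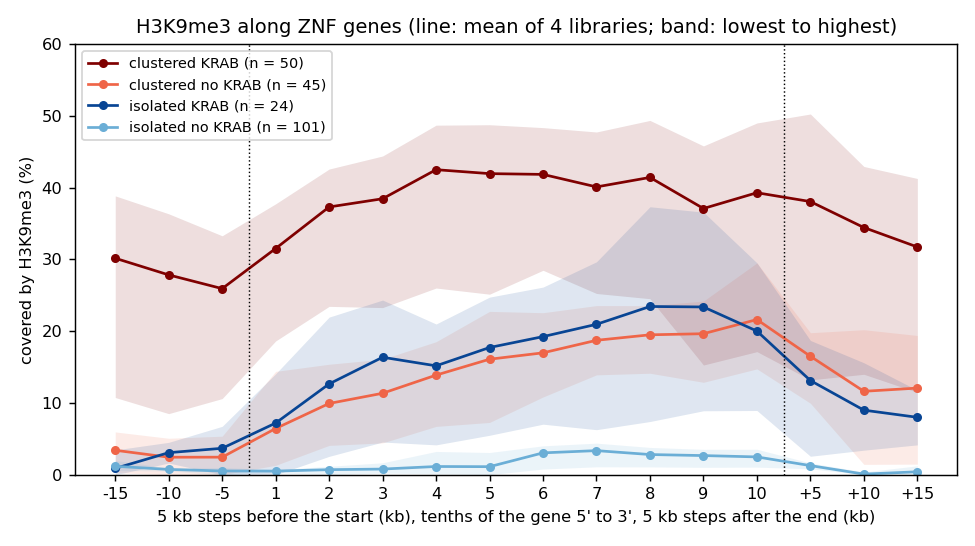
H3K9me3 coverage (%) in 5 kb steps before the start, in 10 equal steps along the gene from 5′ to 3′ and in 5 kb steps after the end, for 4 classes. Lines are means of the 4 libraries and bands run from the lowest to the highest library. In isolated genes with a KRAB match the line peaks at 23.4% in steps 8 and 9, while in clustered ones it stays at or above 25.9% on both sides.

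Isolated genes were rarely covered over most of their length, and none reached 50% in all 4 libraries. Without No gRNA replicate 1, ZNF195, ZNF267, ZNF717 and ZNF300 did so in the other 3. The 5 with the highest lowest-library share were ZNF300, ZNF322, ZNF717, ZNF267 and ZNF484. ZNF300 on chromosome 5 (chr5:150894392-150904983) had 63.4% and 58.7% with the guides and 45.4% and 71.5% in No gRNA, and the groups overlapped. ZNF717 on chromosome 3 had 95.8% and 71.7% against 36.5% and 85.9%, which also overlap. ZNF267 on chromosome 16 had 76.8% and 74.1% against 24.1% and 62.9%. There both All gRNA libraries were higher, by 11.2 points at the nearest pair.

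Around the starts, H3K9me3 was set against H3K4me3 in all 74 genes with a KRAB match, a set chosen without regard to coverage. H3K9me3 covered 21.8% at 10 kb before the start, 16.7% at 5.0 kb before it and 17.1% of the 500 bases before it on average over the libraries. After the start it covered 27.1% at 2.0 kb and 35.0% at 9.5 kb, and the last value was above that of the 500 bases before the start in 4 of 4 libraries. H3K4me3 was highest in the bin after the start, at 37.1%. In the 14 genes at least 50% covered in all 4 libraries, chosen for their H3K9me3, H3K4me3 beside the start was 30.4%. By library, H3K4me3 covered at least 50% of the TSS ± 1 kb in 4 and 1 of the 14 genes in the 2 labelled All gRNA, against 2 and 10 in the 2 labelled No gRNA. With all deposited peaks the counts were 12, 13, 11 and 12. Weak peaks also lay at starts without a peak at q ≤ 0.05 in any library, and that of EPCAM, for example, was then covered at 48.7% to 100%. Only ZNF263 reached 50% for H3K4me3 in 3 of the 4 libraries at q ≤ 0.05, with 100% in both libraries labelled replicate 1 and in that labelled No gRNA replicate 2, and 0% in that labelled All gRNA replicate 2. ZNF268, ZNF718, ZNF454 and ZNF7 had no H3K4me3 in any library at this threshold. Both marks were measured in separate immunoprecipitations of many cells, so their presence on one allele cannot be told apart from a mixture of cells.

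**Figure D5:**
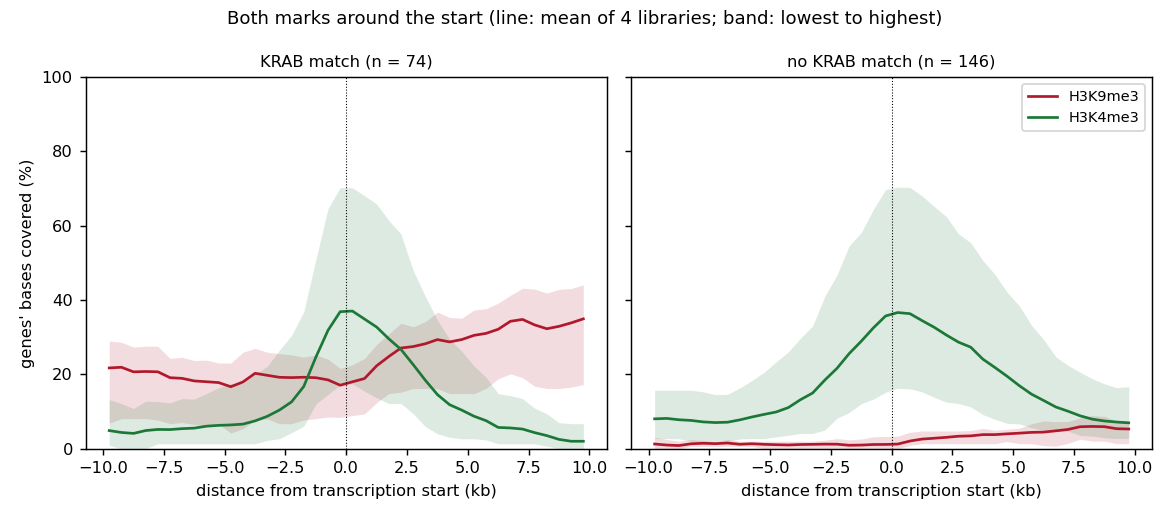
Coverage (%) by H3K9me3 and H3K4me3 in 500-base bins from 10 kb before to 10 kb after the TSS, for the 74 genes with a KRAB match (left) and the 146 without one (right). Lines are means of 4 libraries and bands run from the lowest to the highest. On the left the mean of H3K9me3 is 17.1% just before the start and 35.0% at 9.5 kb after it, and that of H3K4me3 peaks at 37.1%. On the right the mean of H3K9me3 stays at or below 6.01%.

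The starts of a marked and an unmarked cluster are shown here because H3K4me3 lay at both. ZNF891 and ZNF10 are divided by 300 bases and are read in opposite directions from it. The lines below give that stretch (chr12:133130275-133130574, plus strand), the 250 bases before ZNF140 (chr12:133080224-133080473, plus strand), and the 250 bases before ZNF785 (chr16:30585770-30586019, minus strand) of the unmarked chromosome 16 cluster. They were read from hg38 at the GENCODE starts. Capitals mark matches on either strand to GGGCGG, the motif known as the GC box. They also mark matches to CCAAT, the letters of the box of that name, again on either strand. The third motif searched, TATAAA, had no match in any of the 3 windows.
ZNF891 and ZNF10: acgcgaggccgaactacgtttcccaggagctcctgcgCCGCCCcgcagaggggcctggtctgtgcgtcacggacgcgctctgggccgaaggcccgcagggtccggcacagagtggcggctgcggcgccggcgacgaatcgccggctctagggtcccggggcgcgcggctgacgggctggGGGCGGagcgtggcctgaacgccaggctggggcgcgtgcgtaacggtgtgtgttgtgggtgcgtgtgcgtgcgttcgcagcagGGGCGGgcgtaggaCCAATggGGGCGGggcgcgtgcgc
ZNF140: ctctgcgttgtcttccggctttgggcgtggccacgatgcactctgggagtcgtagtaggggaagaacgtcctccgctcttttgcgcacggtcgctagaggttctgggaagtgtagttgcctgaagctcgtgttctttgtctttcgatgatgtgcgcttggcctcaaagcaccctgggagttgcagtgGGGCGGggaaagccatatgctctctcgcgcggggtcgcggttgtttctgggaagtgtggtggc
ZNF785: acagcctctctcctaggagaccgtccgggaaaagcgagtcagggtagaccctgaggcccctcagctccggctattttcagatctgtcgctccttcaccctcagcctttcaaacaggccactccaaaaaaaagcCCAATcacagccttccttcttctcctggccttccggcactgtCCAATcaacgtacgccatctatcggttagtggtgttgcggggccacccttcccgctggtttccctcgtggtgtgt

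The shared stretch held 44 CpG dinucleotides and 4 GC boxes, that before ZNF140 19 CpG and 1 GC box, and that before ZNF785 12 CpG, 2 CCAAT boxes and no GC box. H3K4me3 covered 85.0% of the ZNF891 start region and 69.9% of that of ZNF10 in the list labelled All gRNA replicate 2, and 100% of both in No gRNA replicate 2 by label, with 0% in the other libraries. Their windows overlap, so these are not separate measurements. Of the 220 genes, 177 had an entry in the RefSeq promoter table (GRCh38.p14, 250 bases before to 50 after each start). A GC box occurred in 61.6% of these, against 44.6% of all 27305 promoters in the table. A CCAAT box occurred in 42.4% against 35.7% and TATAAA in 4.52% against 11.95%. The table holds more promoters than the 19970 protein-coding genes, so it is an unlike background. Its median was 14 CpG per promoter, against 23 in the 177 genes. Among genes with a KRAB match 53.0% held a CCAAT box and 59.1% a GC box. Of the 99 matched genes without H3K9me3 in any library, 69.7% held a GC box, against 4 of the 12 matched among the 14 genes at least 50% covered in all 4. These are matches of letters and not binding sites.

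Few of the 220 genes separated the groups. A gene was called where both libraries of one group exceeded both of the other by 25 percentage points or more. With 2 against 2 libraries the exact two-sided permutation test has 6 labellings and a smallest p of 0.33, so no single gene could pass a threshold of 0.05. For H3K9me3 in gene bodies, 3 genes were called higher in All gRNA, or 1.36%, against 0.16% of all 19970 genes tested. None was called lower, against 0.01% of all genes. A gene without a peak cannot be called, and 15147 of the 19970 genes had none in the body in any library, against 129 of the 220. Of the 249 ZNF genes of chromosome 19, 10 were called higher. Within 10 kb of the TSS none was called in either direction, where the background was 0.225% higher and 0.00501% lower.

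The 3 genes were ZNF174, ZNF678 and ZNF782. ZNF174, a SCAN zinc finger gene in the chromosome 16 cluster from ZNF205 to ZNF597, was covered at 75.6% and 91.3% with the guides and 0% and 28.9% in No gRNA. ZNF678, an isolated gene with 14 fingers on chromosome 1 (chr1:227563543-227677443), had 83.4% and 74.6% against 1.50% and 35.5%. ZNF782, next to ZNF510 on chromosome 9, had 48.0% in both All gRNA libraries against 12.7% and 21.3%. In all 3 the groups did not overlap (exact permutation p = 0.33, the smallest possible). With all deposited peaks, which include weak ones, ZNF174 had 75.6% and 91.3% against 73.9% and 62.2%, and ZNF678 had 90.4% and 88.1% against 79.7% and 79.0%. ZNF782 had 55.5% and 59.5% against 47.0% and 46.7%, and none of the 3 was then called. In each of them No gRNA replicate 1, the library of lowest yield, was also the lowest, and the part of yield in these differences was not tested.

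Over all 220 genes the gene body mean was 16.8% ± 1.43 (SD, n = 2) with the guides and 12.9% ± 7.08 (SD, n = 2) in No gRNA. The difference of 3.88 points was smaller than the spread between replicates, and without No gRNA replicate 1 it was -1.13. Around the TSS (± 10 kb) the means were 11.1% ± 1.21 and 8.70% ± 6.10, with a difference of 2.44 points that became -1.87 without the same library. When all deposited peaks were counted, the gene body mean was 33.6% ± 0.596 (SD, n = 2) against 30.9% ± 0.0176. That difference of 2.75 points was larger than the spread between replicates, but with 2 libraries per group it cannot pass a test. For genes without a ZNF symbol the same values were 11.8% and 13.01% with the guides and 12.4% and 14.2% without. Among clustered ZNF genes they were 52.98% and 53.9% with the guides against 47.7% and 47.6%, and among isolated ones 18.1% and 18.9% against 18.06% and 18.2%, where the groups overlapped.

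H3K4me3 at the starts of these genes varied more between libraries than between labelled groups. It covered on average 40.1% and 15.9% of the TSS ± 1 kb in the 2 labelled All gRNA, against 16.5% and 68.6% in the 2 labelled No gRNA. The difference of the labelled groups was -14.5 points, within a pooled SD of 28.7. Without the 2 libraries whose names give the other condition, 1 library per group remained, at 40.1% and 68.6%, a difference of -28.5 points with no replicate. Over all deposited peaks the 4 libraries lay between 81.1% and 88.0%. At q ≤ 0.05, genes without a ZNF symbol had 31.2% and 10.7% under the All gRNA label, and 8.77% and 50.2% under the other.

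By label, 7 genes were called lower for H3K4me3 in All gRNA, or 3.18%, against 1.62% of all genes, and none higher, against 0.135%. The 2 shares have unlike bases, since a start without a peak cannot be called. Of all 19970 genes 9030 had no H3K4me3 peak at the start in any library, against 58 of the 220. The 7 were ZNF106, ZNF140, ZNF330, ZNF532, ZNF593, ZNF593OS and ZNF48. All 7 had 0% in both libraries labelled All gRNA and 100% in the list labelled No gRNA replicate 2. In the list labelled No gRNA replicate 1 it was 100% for ZNF106, ZNF140, ZNF330, ZNF532 and ZNF593OS, 97.9% for ZNF593 and 60.4% for ZNF48. ZNF593 and the opposite-strand entry ZNF593OS share a start region and count as 1 region. With all deposited peaks, ZNF106, ZNF140, ZNF330 and ZNF532 were at 100% in all 4 libraries. Grouped by the file names instead, none of the 7 was called, since each then had 0% in 1 library of both groups. That grouping called 3 other genes lower (ZNF10, ZNF487 and ZNF891), or 1.36% against 1.67% of all genes, and none higher, against 0.1%. Without the 2 libraries of conflicting names, 1 library per group remained, with no replicate, and calls in that setting are not read as results. ZNF140 was the only one of the 7 with H3K9me3 in its body, and its H3K9me3 did not separate the groups.

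Clustered genes had slightly less H3K4me3 at the start than isolated genes, by 6.05 points ± 5.29 (SD, n = 4 libraries), in the same direction in 4 of 4 libraries. The differences were -13.6 and -4.22 points in the 2 labelled All gRNA, against -5.24 and -1.19 in the 2 labelled No gRNA. Without the 2 libraries of conflicting names the mean was -7.38 points. With all deposited peaks the difference was 0.29 points in the other direction.

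The genes for the machinery that KRAB proteins act through were compared in the same way. Among 20 genes for corepressors and H3K9 methylation, which include TRIM28, SETDB1, the HP1 genes CBX1, CBX3 and CBX5, and the HUSH complex genes TASOR, MPHOSPH8 and PPHLN1, none was called for H3K9me3 in either direction. The highest gene body value in any library was 6.45%, in ATF7IP. Within 10 kb of the start, TRIM28 had 17.7%, SETDB1 11.5% and CBX1 5.35% in No gRNA replicate 2, and every other value of the 20 genes was 0%. For H3K4me3, 1 of the 20 was called lower by label, where the share of all genes was 1.62%. It was EHMT1, an H3K9 methyltransferase gene, with 0% in both libraries labelled All gRNA and 100% in both labelled No gRNA. Grouped by file name, EHMT1 had 0% and 100% in both groups and was not called, and the 1 gene called, lower, was HDAC1, a histone deacetylase gene.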

How the data were processed

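Broad peak lists for 4 H3K9me3 and 4 H3K4me3 native ChIP-seq libraries of SUM159 cells were analysed, grouped by the sample labels. The methods of the study describe trimming with fastp, mapping to hg38 with bowtie2, removal of reads in excluded regions and of duplicates, and peak calling with MACS2. The submitters' processing notes instead name bcl2fastq 2.17, Trimmomatic 0.33, Bowtie 1.1.2 and MACS2 2.1.0, and which was used for these lists is not given in the sources used here. The lists were deposited per library without pooling. Each deposited peak carries a score, a fold ratio over background, and −log10 p-values and −log10 q-values, all made by the authors' peak caller. Peaks reach down to a −log10 p-value of about 1.00 in the deposited lists.

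Here peaks on chromosomes 1 to 22 and X with q ≤ 0.05 were merged and covered shares computed with Python 3.11.15, numpy 2.4.6 and pandas 2.3.3, on GENCODE release 44 of the same build. Coverage code was tested on simulated data. KRAB, SCAN and finger matches came from translated canonical coding sequences. Named genes were those called (up to 8 per measure and direction), the 10 with the highest lowest-library gene body share, clusters of 5 or more, marked genes with H3K4me3 in 3 of 4 libraries, and the 5 highest isolated genes. Members and lists were chosen with earlier results of these data known. Depth is not given by peak lists, so no counting interval can be given. Same-numbered libraries were not paired: their deviations correlated at -0.031 for H3K9me3 gene bodies, -0.009 for TSS windows and -0.333 for H3K4me3. Alternatives covered the q threshold, windows, distances, gap, single libraries and the replicate block.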

Additional observations from a re-analysis of the deposited data

How the results depend on the processing

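Of 168 alternative values for 13 results, 118 stayed within the spread or count limit, 43 moved and 7 changed sign. The gene body excess of clustered over isolated genes stayed positive in all settings run, at 32.2 points with all deposited peaks, 12.7 at equal covered length per library, 7.78 at q ≤ 0.01 and 0.889 at q ≤ 0.001. The TSS excess was 27.2, 9.74, 6.80 and 1.24 in the same order, and that of the finger exon over the body 11.5, 2.48, 1.34 and 0.143. The difference between the H3K9me3 groups turned to -0.191 in gene bodies and -0.117 around the TSS at q ≤ 0.001. That of the labelled H3K4me3 groups turned to 4.47 at equal covered length, and the H3K4me3 difference between clustered and isolated genes to 0.29 with all peaks.

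Leaving out each library in turn, the group difference ranged from -1.13 to 8.89 points for gene bodies, -1.87 to 6.75 around the TSS and -40.6 to 11.5 for H3K4me3. Called genes ranged from 3 to 25 higher and 0 to 4 lower for gene bodies, 0 to 18 higher and 0 to 6 lower around the TSS, and 0 to 16 higher and 8 to 66 lower for H3K4me3. The most higher calls (25, 18 and 16) came without No gRNA replicate 2 and the most lower calls (4, 6 and 66) without No gRNA replicate 1. Dropping All gRNA replicate 1 gave 21 lower for H3K4me3, and dropping All gRNA replicate 2 gave 9 higher for gene bodies.

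Shares over all genes were computed only for the main setting and for the grouping by file names. The other counts below have no such share beside them and are not read as results about these genes. Gene body calls with all peaks were 0 higher and 1 lower, 0 higher at q ≤ 0.01, q ≤ 0.001 or a gap of 50 points, and 1 lower at equal covered length. TSS calls higher were 1 at equal covered length and 3 within 5 kb. H3K4me3 calls lower were 4 with all peaks and 2 at q ≤ 0.001, calls higher 8 at equal covered length. Without the 2 libraries of conflicting names they were 69 lower and 3 higher, and with the H3K4me3 groups taken from the file names, a setting added after seeing the data, 3 lower and 0 higher, with a difference of -13.9 points. The cause of these changes was not tested. Leaving out the 2 libraries of conflicting names compares 1 H3K4me3 library with 1, without a replicate. Those libraries, labelled All gRNA replicate 1 and No gRNA replicate 2, had 54.6 and 115 Mb covered, so the counts cannot separate group from yield. With the replicate block, calls were 4 higher for gene bodies, 1 higher around the TSS and 9 lower for H3K4me3. Pairing the H3K4me3 libraries crosswise gave 7 lower and 0 higher, a setting chosen after seeing the data, as was leaving out 4 readthrough or opposite-strand entries, which left 3 gene body calls and 6 H3K4me3 calls.

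Peak lists without counts limit these values: a share depends on the library's depth and on the threshold, and only 2 libraries per group were analysed. Genes of a cluster share peaks.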

Other observations

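The distance to the chromosome end was examined after the values were seen. Of the 14 genes at least 50% covered by H3K9me3 in all 4 libraries, 13 lay within 5 Mb of an end of their chromosome, as did 57 of all 220 genes. The exception was ZNF510. Mean gene body coverage in those 57 genes was 41.5% and 38.6% with the guides and 22.98% and 41.7% in No gRNA, against 9.48% and 7.75%, and 2.60% and 9.59%, in the 163 genes farther away. Among clustered genes the mean over the 4 libraries was 47.5% in the 42 near an end and 12.3% in the other 53, while among isolated genes it was 4.47% and 4.95%. Among genes with a KRAB match it was 56.5% in the 31 near an end and 14.6% in the other 43. In genes without a ZNF symbol it was 2.91% and 1.56%. With a limit of 2 Mb the means over all 220 genes were 37.7% and 10.2%, and with 10 Mb 29.9% and 7.93%. The genes near an end come from few clusters, so this is a description of those clusters, with no test.

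Position near an end did not go with high coverage in every cluster. The cluster from ZNF251 to ZNF16 lies within 0.382 Mb of an end and had a mean of 22.8%, against 90.6% in that from ZNF605 to ZNF268, within 0.319 Mb. The interior clusters from ZNF48 to ZNF629 and from ZNF445 to ZNF501 had 0% and 16.8%.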
